A study of Drosophila melanogaster with 16 samples.

Results

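The steroid hormone 20-hydroxyecdysone times the moults and the metamorphosis of insects through a short list of transcription factors, and 10 of these genes are described here: EcR, usp, br, Eip74EF, Eip75B, Eip78C, Hr46, Hr4, Hr39 and ftz-f1. They were chosen by name, as nuclear receptors and early genes of the ecdysone response, and all 10 were found among the 9982 genes of the expression table, which was made by RNA-seq of whole Drosophila melanogaster larvae. The question of the experiment was how gene expression on a high sugar diet depends on Grain, the GATA transcription factor encoded by grn. In larvae labelled grn RNAi, reads of ftz-f1 and Eip74EF were 5.72 and 5.93 times lower than in control larvae on LSD, EcR was modestly lower and Hr39 higher. Between the diets, 1 of the 10 genes was called in each genotype. Of all genes, 19.3% rose and 22.3% fell on the high sugar diet in control larvae, and 18.3% and 23.3% in larvae labelled grn RNAi.

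Groups followed the sample titles: larvae labelled grn RNAi on LSD, control larvae on LSD, larvae labelled grn RNAi on HSD and control larvae on HSD, with 4 libraries in each group and 20 pooled larvae in each library. LSD (low sugar diet) held 10% yeast, and HSD (high sugar diet) held 10% yeast with 15% sucrose. Larvae were placed on LSD as first-instar animals. Early in the second instar, at 48 h after egg laying, they were moved to fresh LSD or to HSD, and were frozen after 8 h. Both genotypes carried the Tub-GAL4 driver, which is active in all tissues, with a UAS line for dsRNA against grn in the one and a line for dsRNA against luciferase in the other. The larvae were thus alike in driver and differed in the hairpin, and all libraries labelled grn RNAi rest on a single RNAi line. Other fields of the sample labels contradict the titles: the genotype field names wild type for LSD and an erk7 mutant for HSD, and the stage field names an instar later than the one that the study's methods give. The study calls the libraries of a group biological replicates, each of pooled larvae, and p-values measure the spread between them. Whether they were raised from separate crosses or plates is not given in the sources used here.

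Reads assigned to the targeted gene went against the label. Reads counted as grn came to 227, 259, 229 and 240.3 normalized CPM in libraries labelled grn RNAi on LSD, against 14.6, 17.8, 20.8 and 19.1 in control libraries on LSD. On HSD they came to 207, 223, 231 and 215 in the libraries labelled grn RNAi, against 20.1, 21.6, 23.4 and 17.1 in control libraries. The groups lay far apart on both diets, with more grn reads in the libraries labelled as the knockdown (log2 fold change 3.70 on LSD and 3.39 on HSD, adjusted p = 3.5e-12 and 1.2e-11 by limma). Counts per gene do not show where in grn these reads lie, and a hairpin transgene made of grn sequence would be counted with the endogenous transcript, from which it cannot be told apart here. The counts therefore do not check the knockdown, and every direction below is that of libraries as labelled. Normalized CPM are read counts scaled to library depth (CPM) after the authors' scaling between libraries, and log2 fold changes are on the log2(normalized CPM + 0.5) scale throughout, given ± SE.

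The 16 libraries held 24038848 to 32644817 reads in the genes of the table, and a member of the list had 105 to 3983 reads in a library. On the principal components of all genes, the first (56.7% of the variance) separated the genotypes and the second (16.2%) the diets. Control HSD replicate 3 and grn RNAi HSD replicate 4 stood nearest to the LSD libraries on the second component, and results that rest on them are given without them. Genes that mark other tissues also differed between the genotypes. The summed level of 10 midgut markers was 1515 to 1589 normalized CPM in libraries labelled grn RNAi, against 3109.8 to 3358 in control libraries on LSD, and 2411 to 2658 against 3544 to 4131 on HSD, with 9 of the 10 lower on LSD and 7 lower on HSD. Of 10 neuron markers, 9 were higher on LSD and 5 on HSD, and their summed level was 257 to 309 against 209.9 to 271 on LSD and 341 to 374 against 300.0 to 326 on HSD. Of 10 muscle markers, 8 were lower on LSD, and their summed level was 45329 to 49909 against 52240.2 to 56396 on LSD and 50539.6 to 54389.9 against 50725 to 55630.2 on HSD. Fat body markers were lower for 4 of 6 on LSD and 3 on HSD, imaginal disc markers higher for 4 of 7 on LSD and lower for 1 on HSD, hemocyte markers higher for 1 and lower for 2 of 6 on LSD and lower for 1 on HSD, and salivary gland markers higher for 1 of 5 on LSD. Of all genes tested, 27.1% were higher and 27.1% lower on LSD, and 17.9% and 21.2% on HSD, to which the counts of hemocyte and salivary gland markers on LSD are near. The part of these shifts in the results on ecdysone genes was not tested, and in RNA from whole larvae fewer cells of a type and less RNA per cell cannot be told apart. Of 10 genes for glue and storage proteins of late larvae, 2 were in the table (Lsp1beta and Lsp1gamma), and no gene for a salivary glue protein was matched.

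In flies, a pulse of ecdysone binds the heterodimer of EcR and Ultraspiracle, and the loaded receptor switches on early genes, among them br, Eip74EF and Eip75B. The early products pass the signal to a second tier of orphan nuclear receptors such as DHR3, the product of Hr46, and DHR4. DHR3 in turn is known to activate ftz-f1, whose product appears once the pulse has gone and makes tissues competent to answer the next one, and Eip75B protein can block DHR3. Each larval moult is set by such a pulse, so the levels of these genes move with the time since the last moult. That time is not given for the libraries in the sources used here, and its part in the differences below was not tested.

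Of the receptor's subunits, EcR passed the test between the genotypes and usp did not, and whether they differ from each other was not tested. EcR (FBgn0000546, chromosome 2R from 6087873 to 6169087 on the minus strand in Release 6 of the genome) encodes the ecdysone-binding subunit. It had 24.4, 29.4, 22.4 and 27.3 normalized CPM in libraries labelled grn RNAi on LSD, against 42.0, 31.4, 39.7 and 44.8 in control libraries on LSD. On HSD, EcR had 23.8, 30.1, 22.8 and 30.7 in libraries labelled grn RNAi, against 37.6, 46.7, 46.6 and 42.5 in control libraries. Every library labelled grn RNAi lay below every control library of its diet. EcR fell by limma on LSD (log2 fold change -0.60 ± 0.13, adjusted p = 0.0013) and on HSD (log2 fold change -0.69 ± 0.13, adjusted p = 0.00063), which is 1.51 and 1.61 times lower, and an exact permutation test of 4 against 4 libraries gave p = 0.029 for each, the smallest p it can give.

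Its partner usp (FBgn0003964, chromosome X from 2038798 to 2042311, minus strand), the fly ortholog of the vertebrate retinoid X receptors, did not pass in any comparison by limma with the deposited scaling and all libraries. It averaged 28.1 ± 0.974 normalized CPM in libraries labelled grn RNAi and 26.8 ± 3.41 in control libraries on LSD (SD, n = 4 each). On HSD, usp averaged 25.2 ± 0.882 in libraries labelled grn RNAi and 27.8 ± 3.20 in control libraries (SD, n = 4 each). The genotype values were 0.07 ± 0.09 on LSD (adjusted p = 0.49) and -0.13 ± 0.09 on HSD (adjusted p = 0.25), closer to 0 than those of EcR. With CPM of all recovered reads it passed on LSD (0.27, adjusted p = 0.017, within 0.017 to 0.89). In the libraries labelled grn RNAi, usp had 24.1, 26.1, 25.8 and 25.0 on HSD, against 28.9, 27.1, 27.5 and 28.9 on LSD, which do not overlap, but the difference of -0.15 ± 0.09 did not pass by limma (adjusted p = 0.18). An exon of usp shares 265 bases of the same strand with the muscle gene Actn, and reads in that stretch cannot be assigned to one of the pair.

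**Figure D1:**
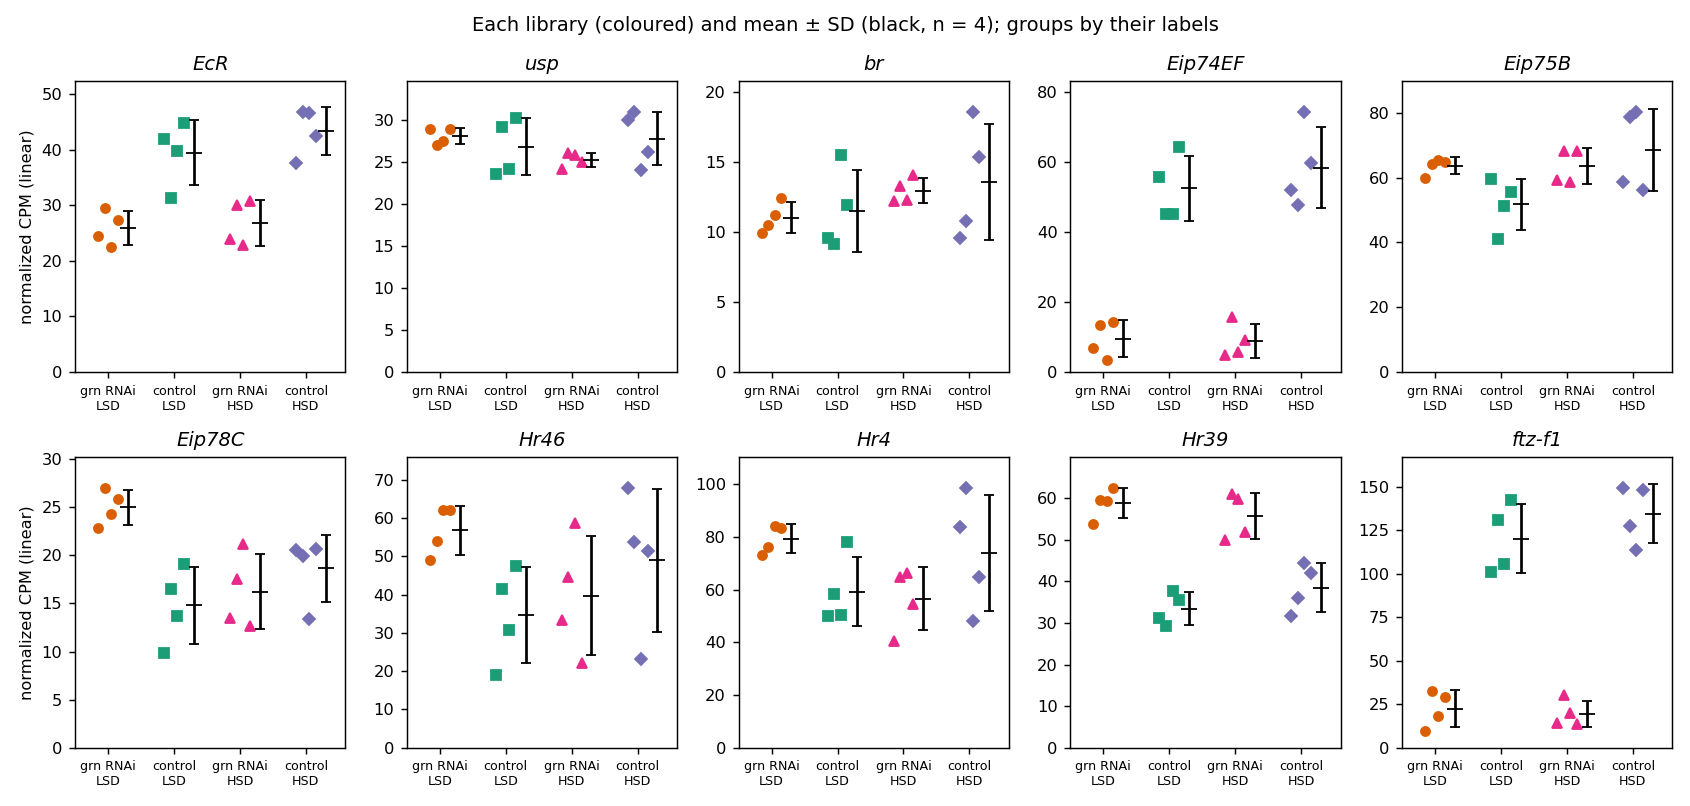
Normalized CPM of the 10 genes in each library (linear axes from 0), with the groups labelled grn RNAi left of their controls for each diet and black bars giving mean ± SD of 4 libraries. The points of ftz-f1, Eip74EF and EcR in libraries labelled grn RNAi lie below all control points of the same diet, those of Hr39 lie above them, and those of br overlap throughout.

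Among the early genes, Eip74EF was several times lower in libraries labelled grn RNAi, and br did not pass. Eip74EF (FBgn0000567, chromosome 3L from 17558672 to 17619325, minus strand), which encodes an ETS-domain transcription factor, had 6.91, 13.4, 3.49 and 14.4 normalized CPM in libraries labelled grn RNAi on LSD, against 55.8, 45.1, 45.2 and 64.3 in control libraries. On HSD it had 4.79, 15.6, 5.79 and 9.13, against 52.0, 47.8, 74.3 and 59.7 in control libraries. The highest value in a library labelled grn RNAi was thus well below the lowest control value. Eip74EF fell by limma on LSD (log2 fold change -2.57 ± 0.39, adjusted p = 7.8e-05) and on HSD (log2 fold change -2.78 ± 0.39, adjusted p = 6.6e-05), or 5.93 and 6.86 times. Libraries labelled grn RNAi also differed widely among themselves, with a CV of 54.8% on LSD and 55.4% on HSD, against 17.7% and 19.9% in control libraries, and with each library left out in turn the fold change stayed between -2.82 and -2.18 on LSD and between -3.09 and -2.55 on HSD.

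The early gene br (FBgn0283451, chromosome X from 1575132 to 1664869, plus strand), whose zinc finger proteins specify the pupal programme, had 9.92 to 12.5 normalized CPM in libraries labelled grn RNAi and 9.15 to 15.5 in control libraries on LSD. On HSD, br had 12.2 to 14.1 in libraries labelled grn RNAi and 9.57 to 18.6 in control libraries. The ranges of the genotypes overlapped on each diet. The differences were -0.04 ± 0.19 on LSD and -0.02 ± 0.19 on HSD (adjusted p = 0.88 and 0.95), values whose sign turned with other scalings and with single libraries left out. The CV was 9.93% in libraries labelled grn RNAi and 25.3% in control libraries on LSD, and 6.88% and 30.7% on HSD.

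Eip75B (FBgn0000568, chromosome 3L from 17950953 to 18064696, minus strand) encodes a heme-binding nuclear receptor related to vertebrate Rev-Erb. On LSD it had 59.7, 64.1, 65.5 and 64.9 normalized CPM in libraries labelled grn RNAi, against 59.5, 41.1, 51.2 and 55.5 in control libraries. On HSD, Eip75B had 59.1, 68.3, 58.6 and 68.2, against 58.7, 78.8, 80.2 and 56.3 in control libraries. The groups were just apart on LSD and overlapped on HSD. The difference on LSD was 0.30 ± 0.12 (adjusted p = 0.052 by limma) and that on HSD -0.09 ± 0.12 (adjusted p = 0.59), neither past 0.05. On LSD the test lay at its threshold, since 11 of 31 alternatives brought it past 0.05, with adjusted p between 0.0020 and 0.17 over all 31. Among these were leaving out control LSD replicate 1 (0.37, adjusted p = 0.028) and each of the 4 control HSD libraries (0.30, adjusted p between 0.040 and 0.048), which enter through the spread shared by all groups.

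Eip78C (FBgn0004865, chromosome 3L from 21226609 to 21266503, plus strand), a nuclear receptor of the same family as Eip75B, was higher in libraries labelled grn RNAi on LSD, with 22.8, 27.0, 24.3 and 25.9 normalized CPM against 9.82, 16.5, 13.7 and 19.1 in control libraries. The 4 values lay above all control values (log2 fold change 0.78 ± 0.20, adjusted p = 0.0044, 1.71 times). On HSD, Eip78C had 13.5, 17.6, 21.2 and 12.7 in libraries labelled grn RNAi, against 20.6, 19.9, 13.4 and 20.7 in control libraries, and these overlapped (log2 fold change -0.20 ± 0.20, adjusted p = 0.45). The effect of the label on HSD minus that on LSD was -0.98 ± 0.28, the difference closest to its threshold among the 10 genes (adjusted p = 0.058). It passed with DESeq2 (-0.94, adjusted p = 0.0065) and voom (-1.03, adjusted p = 0.045) and not with edgeR, and adjusted p ran between 0.0065 and 0.12 over 30 alternatives. Without control LSD replicate 4, control HSD replicate 3 or grn RNAi HSD replicate 3 it was -1.11, -1.12 and -1.11 (adjusted p = 0.029, 0.020 and 0.034), and without both HSD libraries that stand nearest to LSD it was -1.02 (adjusted p = 0.040).

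The orphan receptors of the next tier moved less evenly. Hr39 (FBgn0261239, chromosome 2L from 21237250 to 21259675, plus strand), a receptor of the same subfamily as ftz-f1, had 53.9, 59.7, 59.5 and 62.5 normalized CPM in libraries labelled grn RNAi on LSD, against 31.3, 29.3, 37.8 and 35.5 in control libraries. On HSD it had 50.0, 60.9, 59.8 and 51.9, against 31.6, 36.0, 44.5 and 41.9 in control libraries. On both diets the groups were apart, and Hr39 rose on LSD (log2 fold change 0.81 ± 0.11, adjusted p = 2.2e-05, 1.75 times) and on HSD (log2 fold change 0.53 ± 0.11, adjusted p = 0.0012, 1.45 times). These calls held under all 31 alternatives on each diet. Hr39 was also the member with the highest level per kilobase of exon in the libraries labelled grn RNAi, as given below.

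Hr46 (FBgn0000448, named Hr3 in the Ensembl annotation, chromosome 2R from 10203995 to 10237348, minus strand) encodes DHR3, a receptor related to vertebrate ROR. It had 49.0, 54.0, 62.2 and 62.1 normalized CPM in libraries labelled grn RNAi on LSD, against 19.0, 41.6, 30.8 and 47.6 in control libraries. On HSD, Hr46 had 33.5, 44.7, 58.7 and 22.2 in libraries labelled grn RNAi, against 67.9, 53.7, 23.2 and 51.3 in control libraries. The groups were apart on LSD alone, and neither difference passed by limma (0.77 ± 0.35, adjusted p = 0.073 on LSD and -0.29 ± 0.35, adjusted p = 0.55 on HSD). Its CV was 11.4% in libraries labelled grn RNAi and 36.1% in control libraries on LSD, and 39.2% and 38.1% on HSD. On LSD it passed without control LSD replicate 4 (0.95, adjusted p = 0.044), without control HSD replicate 3 (0.77, adjusted p = 0.035) and without both HSD libraries nearest to LSD (0.77, adjusted p = 0.017), within a range of 0.017 to 0.22 over 31 alternatives. Exons of Hr46 share 6466 and 6071 bases with the same-strand genes CG12912 and CG46321, and how reads there were assigned is uncertain.

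Hr4 (FBgn0264562, chromosome X from 1941940 to 2007956, plus strand) encodes DHR4, a repressor known in the prothoracic gland for its part in the timing of ecdysone pulses. On LSD it had 73.2, 76.2, 84.3 and 83.4 normalized CPM in libraries labelled grn RNAi, against 50.0, 58.2, 50.5 and 78.1 in control libraries. On HSD, Hr4 had 40.3, 64.8, 66.4 and 54.4 in libraries labelled grn RNAi, against 83.6, 98.5, 48.1 and 64.7 in control libraries. The genotypes overlapped on both diets, and the values of 0.44 ± 0.21 on LSD (adjusted p = 0.087) and -0.36 ± 0.21 on HSD (adjusted p = 0.19) did not pass. Control HSD replicate 3 had the lowest level of Hr4 in its group, and without it the values were 0.44 on LSD and -0.54 on HSD (adjusted p = 0.046 and 0.036), with -0.98 for their difference (adjusted p = 0.030). On LSD it passed also without control LSD replicate 4 (0.58, adjusted p = 0.033). Over the alternatives adjusted p ran between 0.015 and 0.19 on LSD, between 0.036 and 0.47 on HSD and between 0.030 and 0.24 for the difference.

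The largest difference among the 10 genes on HSD was that of ftz-f1 (FBgn0001078, chromosome 3L from 18750607 to 18801309, minus strand), the competence factor at the end of the cascade. It had 9.63, 32.6, 18.5 and 29.3 normalized CPM in libraries labelled grn RNAi on LSD, against 101, 131, 106 and 143 in control libraries. On HSD it had 14.5, 30.1, 19.8 and 13.4 in libraries labelled grn RNAi, against 149, 127, 114 and 148 in control libraries. No library labelled grn RNAi came near a control library. In limma, ftz-f1 fell on LSD (log2 fold change -2.52 ± 0.32, adjusted p = 1.5e-05) and on HSD (log2 fold change -2.82 ± 0.32, adjusted p = 8.9e-06), or 5.72 and 7.09 times, and the test of the difference between the diets did not pass (-0.31 ± 0.45, adjusted p = 0.76). Mean levels of 49.2% and 46.1% of the genes tested lay below that of ftz-f1 in libraries labelled grn RNAi on LSD and HSD, against 85.8% and 87.5% in control libraries. For Eip74EF the same shares were 28.7% and 26.6% in libraries labelled grn RNAi, against 70.5% and 73.3% in control libraries. A long noncoding RNA gene, CR45939, shares 2521 exon bases of the same strand with ftz-f1, so the assignment of reads there is uncertain.

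**Figure D2:**
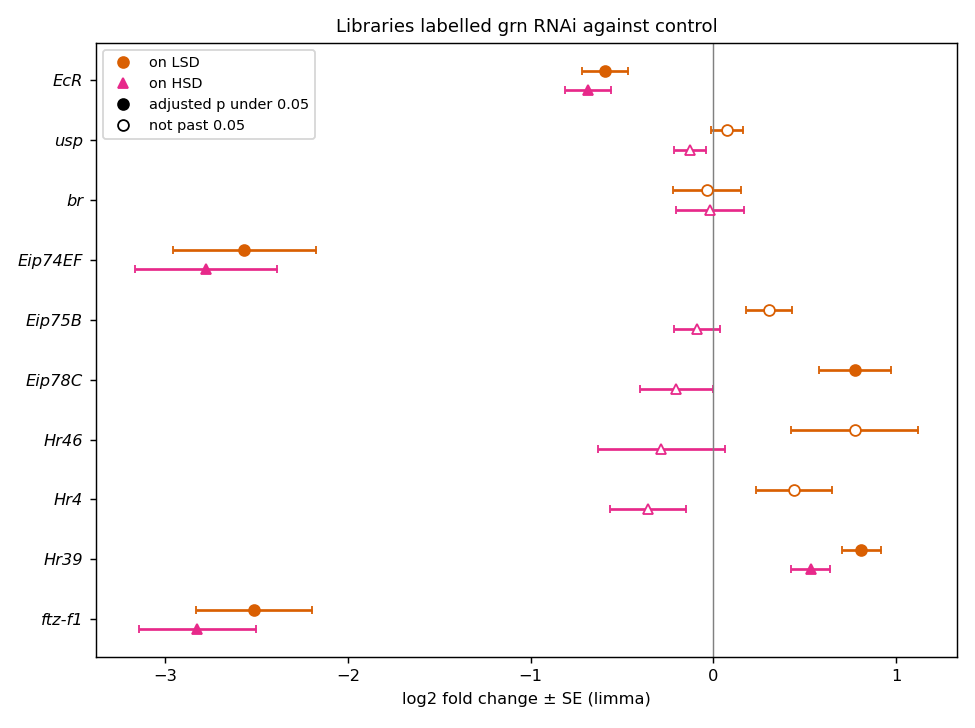
Log2 fold change (± SE, limma) of libraries labelled grn RNAi against control libraries for the 10 genes, on LSD (circles) and HSD (triangles), with filled symbols for adjusted p under 0.05. Eip74EF and ftz-f1 lie between -2.82 and -2.52 on both diets, EcR near -0.60 and -0.69, and Hr39 at 0.81 and 0.53.

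Set together, 2 of the 10 genes rose (Hr39 and Eip78C) and 3 fell (EcR, Eip74EF and ftz-f1) in libraries labelled grn RNAi on LSD, with a median log2 fold change of 0.19 against 0.03 over all genes. Over the 9950 genes tested, 27.1% rose and 27.1% fell in that comparison, so the shares among the 10 are near those of all genes. On HSD, 1 gene rose (Hr39) and 3 fell (EcR, Eip74EF and ftz-f1), with a median of -0.24 against 0.01 over all genes, where 17.9% of all genes rose and 21.2% fell. The libraries of the genotypes did not overlap for 7 of the 10 genes on LSD and for 4 on HSD, against 47.4% and 38.7% of all genes tested. Quantile normalization and CPM of all recovered reads moved the median of all genes by 0.10 and 0.19 on LSD and by 0.12 and 0.14 on HSD. On LSD the genes higher and lower then numbered 4102 and 1906 with the one and 5368 and 1598 with the other, against 2699 and 2692 with the deposited scaling. On HSD they numbered 3923 and 1441 with the one and 4209 and 1392 with the other, against 1785 and 2109. Falls of EcR, Eip74EF and ftz-f1 and rises of Hr39 were called under both scalings.

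Sugar feeding for 8 h was the second question, and 1 of these genes was called in each genotype. Genes that did not pass were not shown to be unchanged. In control larvae, Eip75B alone rose on HSD, with 58.7, 78.8, 80.2 and 56.3 normalized CPM on HSD, against 59.5, 41.1, 51.2 and 55.5 on LSD (log2 fold change 0.39 ± 0.12, adjusted p = 0.021 by limma). The values overlapped, and the exact permutation test gave p = 0.086. The call was lost without control LSD replicate 2 (0.29, adjusted p = 0.072), control HSD replicate 2 (0.32, adjusted p = 0.068) or control HSD replicate 3 (0.31, adjusted p = 0.062), without both HSD libraries nearest to LSD (0.31, adjusted p = 0.069) and with the 8 control libraries alone (0.39, adjusted p = 0.088). Adjusted p ran between 0.0024 and 0.088 over 31 alternatives. None of the 10 genes fell by limma (0 also at an unadjusted p under 0.05, and 0 by edgeR, DESeq2 and voom), and none had diets that did not overlap. Of all genes, 19.3% rose and 22.3% fell on HSD in control larvae, and 31.5% did not overlap between the diets. The other differences ran between 0.05 for usp and 0.47 for Hr46 (adjusted p = 0.67 and 0.3), and Hr39 at 0.19 (adjusted p = 0.16) passed only without control HSD replicate 1 (0.28, adjusted p = 0.041, within 0.041 to 0.39 over its alternatives). Hr46 passed only without both HSD libraries nearest to LSD (0.79, adjusted p = 0.031, within 0.031 to 0.67).

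In larvae labelled grn RNAi, Eip78C alone passed, and it fell on HSD, with 13.5, 17.6, 21.2 and 12.7 normalized CPM on HSD, against 22.8, 27.0, 24.3 and 25.9 on LSD (log2 fold change -0.63 ± 0.20, adjusted p = 0.019). The diets did not overlap. Without grn RNAi HSD replicate 1 or 4 the value was -0.56 or -0.53 (adjusted p = 0.058 and 0.061), within 0.0043 to 0.061 over 31 alternatives. Hr4 had 40.3, 64.8, 66.4 and 54.4 on HSD, against 73.2, 76.2, 84.3 and 83.4 on LSD, again with no overlap, and its difference of -0.51 ± 0.21 stood just outside the threshold (adjusted p = 0.063, within 0.018 to 0.20). It passed without control LSD replicate 4 (-0.51, adjusted p = 0.049), control HSD replicate 2 or 3 (-0.51, adjusted p = 0.044 and 0.030) or grn RNAi HSD replicate 3 (-0.60, adjusted p = 0.0499). None of the 10 genes rose by limma (0 also at an unadjusted p under 0.05, and 0 by edgeR, DESeq2 and voom), 3 had diets that did not overlap (usp, Eip78C and Hr4), and over all genes 18.3% rose, 23.3% fell and 47.2% did not overlap. With the 8 libraries labelled grn RNAi alone, br (0.23, adjusted p = 0.038, within 0.038 to 0.53) and usp (-0.15, adjusted p = 0.014, within 0.014 to 0.33) passed as well.

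**Figure D3:**
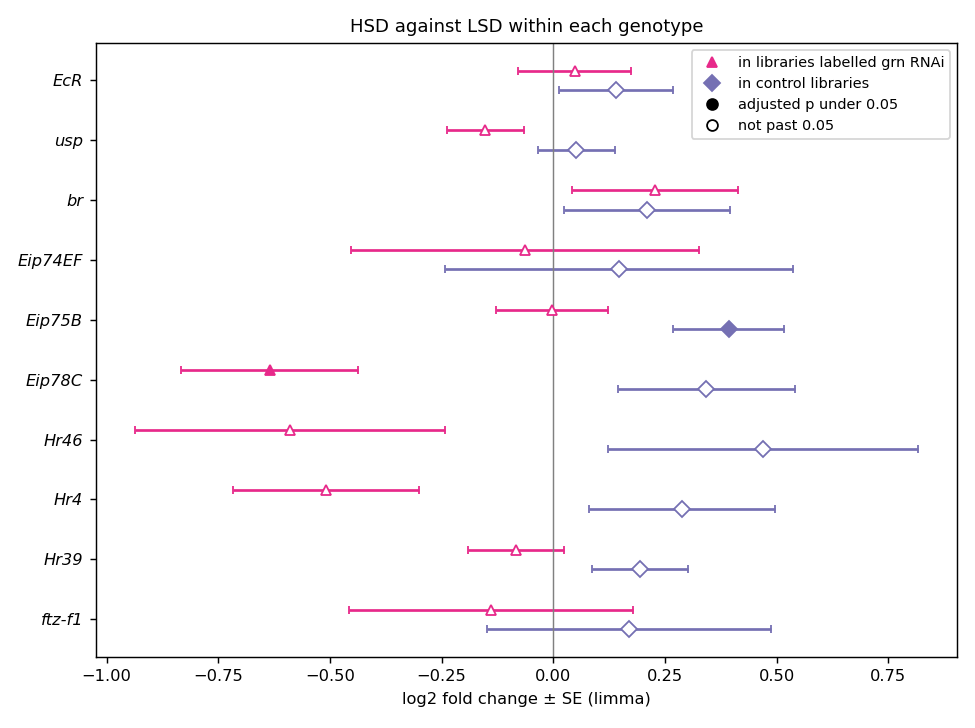
Log2 fold change (± SE, limma) of HSD against LSD for the 10 genes in libraries labelled grn RNAi (triangles) and in control libraries (diamonds), with filled symbols for adjusted p under 0.05. Eip78C, Hr46 and Hr4 lie at -0.63, -0.59 and -0.51 in libraries labelled grn RNAi and at 0.34, 0.47 and 0.29 in control libraries, of which only Eip78C in libraries labelled grn RNAi passed.

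Whether the effect of the label differed between the diets was tested as the effect on HSD minus that on LSD. By limma 0 of the 10 genes passed, 0 by edgeR, 1 by DESeq2 and 1 by voom. Of all genes, 3.72% had a positive and 1.63% a negative difference that passed by limma at an adjusted p under 0.05. In both directions, 532 of all genes passed by limma, 527 by edgeR, 1033 by DESeq2 and 560 by voom. At an unadjusted p under 0.05 there were 4 of the 10 genes, all negative. The share of all genes at that threshold was not computed, and the shares above are at another one. The count is therefore not read as a result about the 10 genes. Among the 4 genes, Eip78C varied with Hr46 (r = 0.94) and Hr4 (r = 0.74) from library to library, so they are not separate observations. The values nearest to the threshold were those of Eip78C (-0.98, adjusted p = 0.058), Hr4 (-0.80, adjusted p = 0.13), Eip75B (-0.40, adjusted p = 0.22) and Hr46 (-1.06, adjusted p = 0.24). The median difference of the 10 genes was -0.29, against -0.02 over all genes.

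Levels of different genes were compared per kilobase of exon, using the union of annotated exons. In libraries labelled grn RNAi on LSD, Hr39 stood highest with a mean of 11.8 normalized CPM per kb, followed by usp with 9.25 and Hr4 with 5.70, and in control libraries on LSD ftz-f1 stood highest with 13.99, followed by usp with 8.83 and Hr39 with 6.72. On HSD the order began with Hr39 (11.2), usp (8.31) and Eip75B (4.73) in libraries labelled grn RNAi, and with ftz-f1 (15.7), usp (9.15) and Hr39 (7.73) in control libraries. The place of ftz-f1 was 7 and 8 of 10 in libraries labelled grn RNAi on LSD and HSD, against 1 on both diets in control libraries. The last place was that of br in all 4 groups, with 0.546 and 0.643 per kb in libraries labelled grn RNAi and 0.571 and 0.673 in control libraries on LSD and HSD. Neighbours in the middle of the order were not apart: the library ranges of Hr4, Hr46, Eip75B and Eip78C overlapped between neighbours in libraries labelled grn RNAi on both diets. Those from Hr39 down to Eip78C did so in control libraries on LSD, and those from usp down to EcR in control libraries on HSD. In libraries labelled grn RNAi, the range of ftz-f1 overlapped those of EcR and of Eip74EF on both diets. EcR, Eip75B and br have 6, 7 and 16 annotated transcripts, which counts per gene do not tell apart.

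Within groups, some of the 10 genes varied together from library to library. Each library's deviation from its group mean was taken on the log2 scale, correlated over 16 libraries for 45 pairs of genes, and tested by permuting libraries within groups (100000 permutations, two-sided, Benjamini-Hochberg adjustment over the 45 pairs). Hr46 and Eip78C moved most closely (Pearson r = 0.94, adjusted permutation p = 0.0045, Spearman rho = 0.95, adjusted permutation p = 0.013), and r was 0.90 without the 2 libraries farthest from the median of Eip78C. Within single groups r was 0.38 and 1.00 in grn RNAi and control libraries on LSD, and 0.96 and 0.97 on HSD. Of 9949 other genes, Hr46 ranked 2 in its correlation with Eip78C. For usp and Hr4, r was 0.84 (adjusted permutation p = 0.0061, rho = 0.86, adjusted permutation p = 0.024, and 0.78 without the 2 farthest libraries). Within single groups it was -0.11 and 0.88 in grn RNAi and control libraries on LSD, and 0.97 and 0.99 on HSD. For br and Hr39 it was 0.85 (adjusted permutation p = 0.024, rho = 0.81, adjusted permutation p = 0.032, and 0.79 without the 2 farthest libraries), though -0.04 within libraries labelled grn RNAi on HSD. For EcR and Eip75B it was 0.74 (adjusted permutation p = 0.029, rho = 0.73, adjusted permutation p = 0.032, and 0.63 without the 2 farthest libraries), with 0.10 and 0.94 within grn RNAi and control libraries on LSD, and 0.99 and 0.82 on HSD. In all, 10 of the 45 pairs passed by r. Among these, EcR with Eip74EF, usp with Eip78C, usp with Hr46 and Eip78C with Hr4 failed by rho (adjusted permutation p = 0.073, 0.14, 0.066 and 0.064). The remaining pairs passed by both. Eip78C with ftz-f1 had r = 0.56 (adjusted permutation p = 0.024, rho = 0.69, adjusted permutation p = 0.026). Hr46 with ftz-f1 had r = 0.49 (adjusted permutation p = 0.036, rho = 0.66, adjusted permutation p = 0.032). Of 9949 other genes, 18.0% had an r with Eip78C as far from 0 as that of ftz-f1, and 28.3% with Hr46. Hr46 with Hr4 passed by rho alone (0.81, adjusted permutation p = 0.024). Of 9949 other genes, Hr46 ranked 251 and Eip78C 303 in their correlation with usp. The share of all gene pairs that would pass was not computed. EcR and usp, which form the receptor together, had r = -0.15 (adjusted permutation p = 0.84, rho = -0.01, adjusted permutation p = 0.99, and 0.04 without the 2 farthest libraries).

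**Figure D4:**
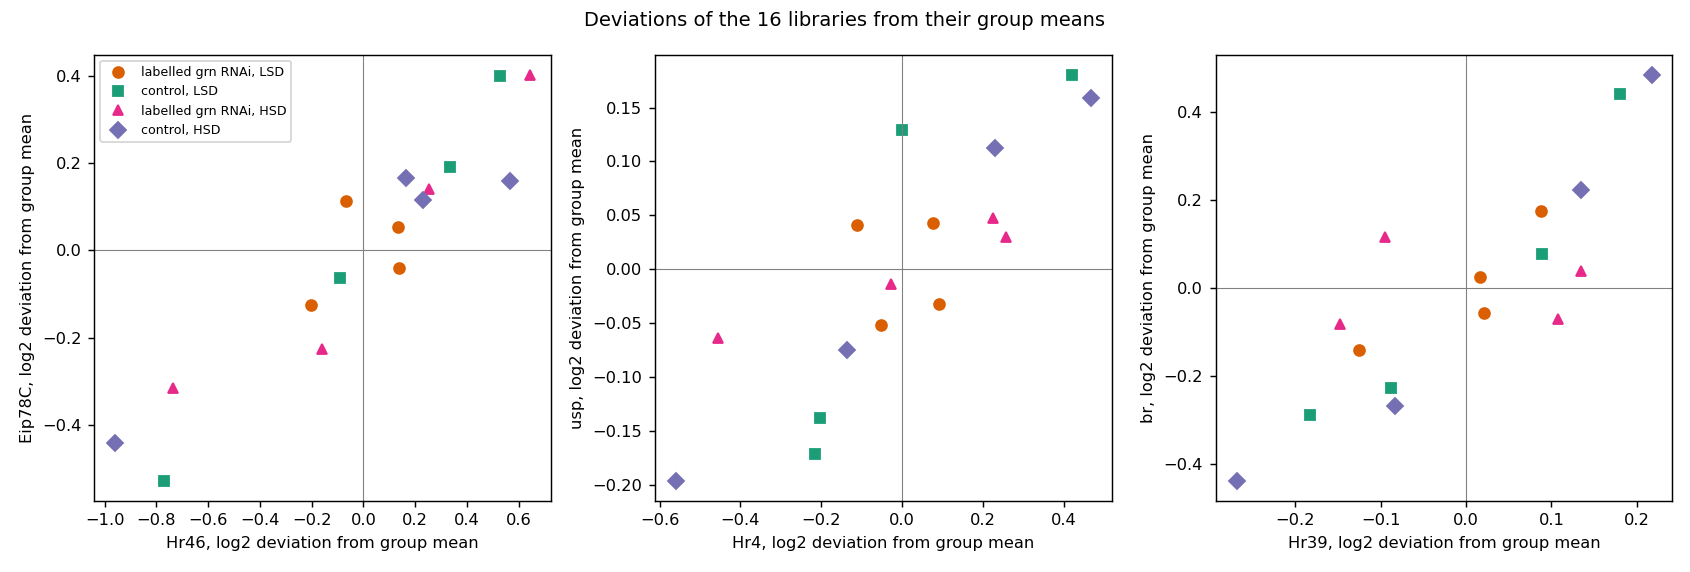
Log2 deviation of each of the 16 libraries from its group mean for Eip78C against Hr46, usp against Hr4 and br against Hr39, with a symbol for each of the 4 groups. The points rise together in each plot (r = 0.94, 0.84 and 0.85).

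The HSD libraries that stood nearest to LSD on the second component were at the low end of Hr46 in their groups. Hr46 had 22.2 normalized CPM in grn RNAi HSD replicate 4 and 23.2 in control HSD replicate 3, each the lowest of its 4 libraries. On LSD, Hr46 had 49.0 to 62.2 in libraries labelled grn RNAi, all above the 22.2, and 19.0 to 47.6 in control libraries, around the 23.2. Over 16 libraries the deviations of Hr46 and of the second principal component of all genes had r = -0.81 (adjusted permutation p = 0.022 over 20 relations) and rho = -0.69 (adjusted permutation p = 0.19), and r was -0.66 without the 2 libraries farthest from the median. The correlation by rank did not pass. The part of this component in the pairs above was not tested.

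Across the 16 libraries, with the group differences left in, the 2 genes outside the 10 most like each member were named by Pearson's r of log2 values, as a description without a test. They were CG2837 (0.99) and CG9990 (0.99) for ftz-f1, and CG7724 (0.98) and dsb (0.98) for Eip74EF. The means of CG2837 were 5.11 and 5.77 normalized CPM in libraries labelled grn RNAi on LSD and HSD, against 42.2 and 45.3 in control libraries. EcR was most like CG5326 (0.95) and dsb (0.95), so that dsb stood near both EcR and Eip74EF. For Hr39 they were RASSF8 (0.96) and pum (0.96), for Hr4 uif (0.96) and Gld (0.93), and for Hr46 CG6040 (0.94) and vvl (0.94). For Eip78C they were CrebA (0.92) and rb (0.91), for usp pwn (0.88) and sn (0.87), for br alpha-Est9 (0.93) and Mmp1 (0.91) and for Eip75B Cap-H2 (0.81) and Cht5 (0.80). The pattern of Eip75B was the least closely matched by any gene, and that of ftz-f1 the most closely, among the 10. Among the members themselves, Eip74EF and ftz-f1 were most alike (0.95), with EcR and Eip74EF next (0.94), and all of these values share the same 4 groups of libraries.

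Genes that make, import or destroy the hormone form the first of the other lists of the pathway. Of 13 tested, 3 rose and 2 fell in libraries labelled grn RNAi on LSD, and 5 rose and 3 fell on HSD, with median log2 fold changes of 0.07 and 0.03 (0.03 and 0.01 over all genes). Over all genes 27.1% rose and 27.1% fell on LSD, and 17.9% and 21.2% on HSD, so the counts on LSD are no higher than those shares. Cyp18a1, the enzyme that inactivates ecdysteroids, averaged 20.3 ± 9.27 normalized CPM in libraries labelled grn RNAi and 58.6 ± 18.8 in control libraries on LSD, and 11.2 ± 5.52 and 63.8 ± 5.42 on HSD (SD, n = 4 each). It fell on LSD (log2 fold change -1.57 ± 0.35, adjusted p = 0.0016) and on HSD (log2 fold change -2.57 ± 0.35, adjusted p = 4.8e-05). The enzyme that makes 20-hydroxyecdysone from ecdysone, encoded by shd, rose on both (0.93, adjusted p = 0.0042 on LSD and 1.59, adjusted p = 0.0001 on HSD). Of the enzymes of the prothoracic gland, sad rose on LSD (0.95, adjusted p = 0.00013) and on HSD (0.41, adjusted p = 0.044), while phm was at 0.14, adjusted p = 0.19 on LSD and rose on HSD (0.64, adjusted p = 5.0e-05). The importer gene Oatp74D was at -0.07, adjusted p = 0.74 on LSD and -0.37, adjusted p = 0.089 on HSD. The call of sad on HSD was fragile, lost in 14 of 31 alternatives with adjusted p up to 0.16, including each library left out other than control LSD replicates 1, 3 and 4 and control HSD replicates 1 and 2, where its value lay between 0.25 and 0.45. Oatp74D passed on HSD without control HSD replicate 3 (-0.51, adjusted p = 0.018), grn RNAi HSD replicate 4 (-0.52, adjusted p = 0.018) or both (-0.66, adjusted p = 0.0015, within 0.0015 to 0.27).

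Among cofactors and regulators of the cascade, 9 of 13 rose and 1 fell in libraries labelled grn RNAi on LSD and 5 rose on HSD, with medians of 0.37 and 0.21 (27.1% of all genes rose and 27.1% fell on LSD, and 17.9% and 21.2% on HSD). The list was not tested against other genes. Blimp-1, a repressor of ftz-f1 in prepupae, averaged 61.3 ± 4.37 normalized CPM in libraries labelled grn RNAi and 8.19 ± 2.49 in control libraries on LSD, and 50.0 ± 12.9 and 14.1 ± 5.28 on HSD (SD, n = 4 each). It rose on LSD (log2 fold change 2.88 ± 0.27, adjusted p = 8.1e-07) and on HSD (log2 fold change 1.84 ± 0.27, adjusted p = 0.0001). Kr-h1, a zinc finger gene that answers to juvenile hormone, rose as well (1.26, adjusted p = 2.7e-07 on LSD and 0.63, adjusted p = 0.00029 on HSD), and so did rig, whose product binds nuclear receptors (0.31, adjusted p = 0.00029 and 0.21, adjusted p = 0.0073). The corepressor gene Smr rose on LSD (0.39, adjusted p = 0.029) and was at 0.24, adjusted p = 0.19 on HSD, and the coactivator gene tai was at 0.08, adjusted p = 0.46 on LSD and -0.15, adjusted p = 0.22 on HSD. The call of Smr was lost in 7 of 31 alternatives (adjusted p up to 0.098), among them without control LSD replicate 1 or 2 (0.25 and 0.30) and without grn RNAi LSD replicate 2, 3 or 4 (0.36 to 0.38). Without control LSD replicate 4, tai passed on LSD (0.18, adjusted p = 0.045, within 0.026 to 0.93).

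**Figure D5:**
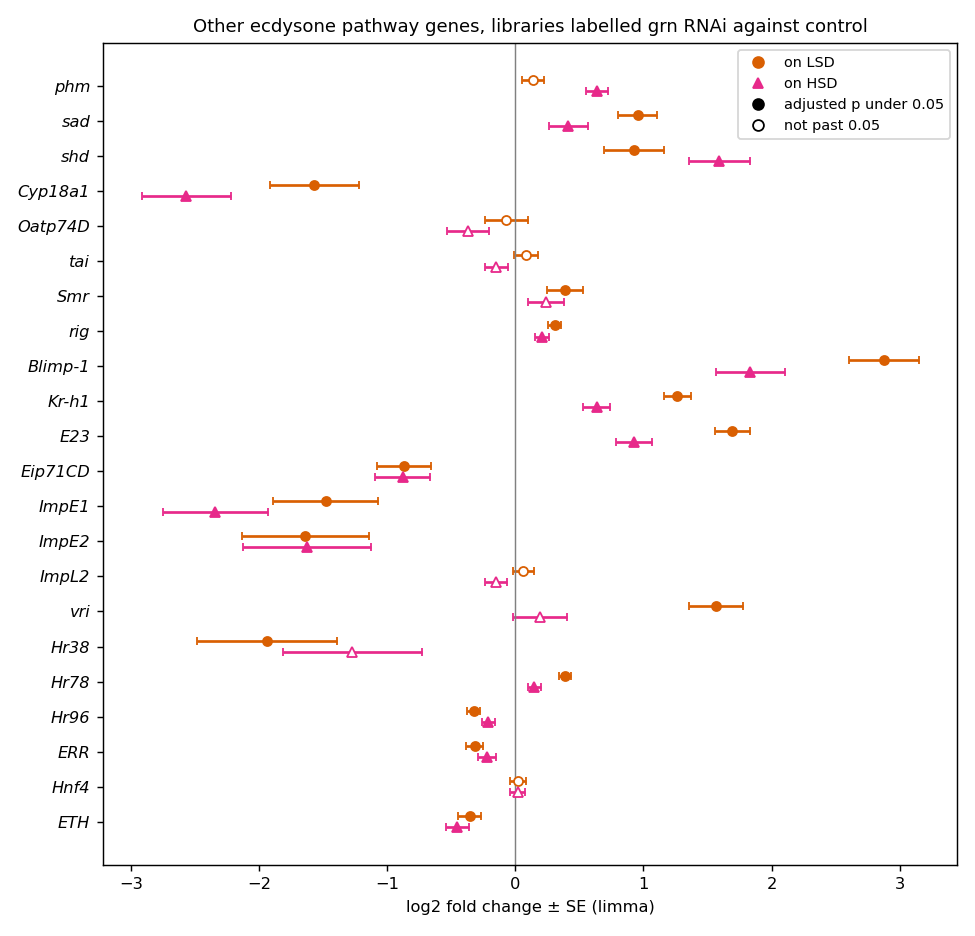
Log2 fold change (± SE, limma) of libraries labelled grn RNAi against control libraries for 22 other genes of the ecdysone pathway, on LSD (circles) and HSD (triangles), with filled symbols for adjusted p under 0.05. Blimp-1 lies at 2.88 and 1.84, and Cyp18a1, ImpE1 and ImpE2 lie between -2.57 and -1.48.

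Other targets of ecdysone went both ways, with 4 rising and 7 falling among 15 tested on LSD, 3 rising and 6 falling on HSD, and medians of -0.44 and -0.17, beside all-gene shares of 27.1% rising and 27.1% falling on LSD and 17.9% and 21.2% on HSD. The 4 of 15 that rose on LSD are near the share of all genes. E23, an ABC transporter gene induced by ecdysone, rose on both diets (1.70, adjusted p = 2.0e-07 on LSD and 0.93, adjusted p = 0.00011 on HSD). The gene vri, which encodes a bZIP repressor of the circadian clock, averaged 50.5 ± 2.66 normalized CPM in libraries labelled grn RNAi and 17.0 ± 4.10 in control libraries on LSD, and 30.6 ± 6.64 and 27.4 ± 10.2 on HSD (SD, n = 4 each). It rose on LSD (log2 fold change 1.57 ± 0.21, adjusted p = 2.8e-05) and was at 0.19 ± 0.21 on HSD (adjusted p = 0.5). The ecdysone-inducible genes ImpE1 and ImpE2, found in imaginal discs, fell on LSD (-1.48, adjusted p = 0.0073 and -1.64, adjusted p = 0.012) and on HSD (-2.34, adjusted p = 0.00043 and -1.63, adjusted p = 0.018). ImpE3, the remaining ImpE gene of the list, which was added after its values were seen, rose on LSD (1.89, adjusted p = 2.4e-07) and on HSD (1.29, adjusted p = 1.7e-05). Eip71CD, a methionine sulfoxide reductase gene, fell on LSD (-0.87, adjusted p = 0.0035) and on HSD (-0.88, adjusted p = 0.0046). ImpL2, which encodes a binding protein of insulin-like peptides, was at 0.06, adjusted p = 0.56 on LSD and -0.15, adjusted p = 0.16 on HSD, where leaving out control HSD replicate 3 brought it past the threshold (-0.23, adjusted p = 0.027, within 0.027 to 0.93). ImpE2 on HSD was lost without control HSD replicate 1 (-1.29, adjusted p = 0.060) or grn RNAi HSD replicate 4 (-1.35, adjusted p = 0.060), within 0.0032 to 0.060.

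For 4 of these 22 genes the effect of the label differed between the diets by limma. Of all genes, 3.72% had a positive and 1.63% a negative difference that passed. The effect on HSD minus that on LSD was -1.38 ± 0.30 for vri (adjusted p = 0.017), -0.77 ± 0.19 for E23 (adjusted p = 0.036), -0.63 ± 0.15 for Kr-h1 (adjusted p = 0.026) and 0.50 ± 0.12 for phm (adjusted p = 0.03). For vri it was past 0.05 with each library left out. The calls of E23, Kr-h1 and phm were lost in 11, 8 and 11 of 30 alternatives, with adjusted p up to 0.076, 0.058 and 0.065. The libraries whose omission lost the call of E23 were control LSD replicates 1 to 3, control HSD replicates 2 and 4, grn RNAi LSD replicates 2 to 4 and grn RNAi HSD replicates 1 and 4, with values between -0.79 and -0.64. Those of Kr-h1 were control HSD replicate 2, grn RNAi LSD replicates 2 to 4 and grn RNAi HSD replicate 1, with values between -0.63 and -0.57. Those of phm were control LSD replicates 1 and 2, control HSD replicates 2 and 4, grn RNAi LSD replicates 1, 2 and 4 and grn RNAi HSD replicate 4, with values between 0.44 and 0.50, and a replicate block gave adjusted p = 0.057.

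Of 8 other nuclear receptors tested, 4 rose and 3 fell in libraries labelled grn RNAi on LSD, while on HSD 2 rose and 2 fell, with medians of 0.11 and -0.01. The shares of all genes were 27.1% rising and 27.1% falling on LSD and 17.9% and 21.2% on HSD, to which the counts on HSD are near. Hr78 rose on LSD (0.39, adjusted p = 1.8e-05) and on HSD (0.15, adjusted p = 0.031). Hr38, a receptor that binds Ultraspiracle, fell on LSD (-1.94, adjusted p = 0.008) and was at -1.27, adjusted p = 0.079 on HSD, at levels of 0.513 to 1.82 normalized CPM in libraries labelled grn RNAi and 2.61 to 12.4 in control libraries on LSD. Hr96, known for its part in lipid and xenobiotic responses, fell on LSD (-0.33, adjusted p = 0.00012) and on HSD (-0.21, adjusted p = 0.0049), as did ERR, a regulator of carbohydrate metabolism (-0.32, adjusted p = 0.0015 and -0.22, adjusted p = 0.019). The lipid regulator Hnf4 was at 0.02, adjusted p = 0.81 on LSD and 0.02, adjusted p = 0.85 on HSD. With CPM of all recovered reads, which moves the median of all genes upwards, the falls of Hr96 and ERR were lost on LSD (-0.13 and -0.12, adjusted p = 0.064 and 0.10) and on HSD (-0.07 and -0.08, adjusted p = 0.30 and 0.26), at the upper end of each range (from 6.9e-08, 3.8e-05, 0.0022 and 0.0041). On HSD they were lost with quantile normalization as well (-0.10 and -0.13, adjusted p = 0.12 and 0.15). The rise of Hr78 on HSD was lost in 8 of 31 alternatives (adjusted p up to 0.10), among them without control HSD replicates 1, 2 or 4 and grn RNAi HSD replicates 2, 3 or 4 (0.12 to 0.14), and the fall of ERR on HSD without control HSD replicate 1 or 2 (-0.20 each, adjusted p = 0.055 and 0.056) or without both HSD libraries nearest to LSD (-0.24, adjusted p = 0.051). Hr38 passed on HSD without control HSD replicate 1 (-1.67, adjusted p = 0.028) and with DESeq2 (-1.81, adjusted p = 0.026), within 0.026 to 0.22. Among ecdysis genes, 3 of 5 were lower on each diet, with medians of -0.36 and -0.45 (27.1% of all genes fell on LSD and 21.2% on HSD), and ETH, the hormone gene that triggers ecdysis behaviour, fell on LSD (-0.36, adjusted p = 0.0038) and on HSD (-0.45, adjusted p = 0.001). The fall of ETH on LSD was lost with CPM of all recovered reads (-0.17, adjusted p = 0.083, the highest over 31 alternatives, from 0.00055).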

How the data were processed

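RNA from 16 libraries of whole larvae was sequenced after poly(A) selection with a stranded kit. The authors trimmed reads with Trimmomatic, mapped them with TopHat2 (version 2.1.0) to FlyBase release 6 and counted them per gene and strand with HTSeq (version 2.7.6). The deposited table holds a signal of normalized CPM for 9982 genes, already filtered by the authors, beside columns of their own limma comparisons (fold changes, p-values and scores), which were not used. Groups were taken from the sample titles.

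A gene was kept where 3 or more of the 4 libraries in any group exceeded a normalized CPM of 1 (9950 genes), and log2(normalized CPM + 0.5) was fitted by limma (version 3.58.1 in R 4.3.3, with a trend) over all 16 libraries. P-values were two-sided and adjusted by Benjamini and Hochberg over these genes, and 0.05 was the threshold. Single genes were also tested by an exact permutation of 4 against 4 libraries, whose smallest p is 0.029. Because normalized CPM came in steps of single reads, whole reads were recovered (100% of values within 0.01 of a whole read), which also gave the depth of 24038848 to 32644817 reads. These reads were used for the alternatives with edgeR (version 4.0.16), DESeq2 (version 1.42.0) and voom. The fit was also run on simulated counts with 200 changed genes and the same dispersion for every gene. That setting is simpler than these data, and no result here rests on it. Other alternatives changed the pseudocount, filter, scaling, trend, threshold and libraries.

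The members and gene lists were chosen with earlier results of these data known. Named genes were the 10 members, grn, pathway genes picked by role and the 2 genes outside the 10 members most like each member. The pathway genes dib and Eip93F, picked as well, were not matched in the table. Gene positions are those of the Ensembl annotation of release 6, and counts per gene do not separate isoforms.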

Additional observations from a re-analysis of the deposited data

Results flagged for a closer look

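Of 132 groups of 4 libraries, covering the 10 genes, grn and the 22 pathway genes, 6 had 1 library far from the other 3, where chance alone flags about 1 in 20 groups. Eip78C was lowest in control HSD replicate 3, at 13.4 normalized CPM, with a gap of 0.902 of the range of its group. In vri, control HSD replicate 2 was highest at 42.52 and control LSD replicate 4 was highest at 23.1 (gaps of 0.869 and 0.866). In ETH, grn RNAi LSD replicate 1 was highest at 7.981 and control LSD replicate 1 was highest at 10.81 (gaps of 0.903 and 0.843). In rig, grn RNAi LSD replicate 4 was highest at 27.26 (gap of 0.913).

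For 4 pathway genes the effect of the grn RNAi label on HSD minus that on LSD passed in limma. Over all genes, 3.72% had a positive and 1.63% a negative difference that passed. The difference was -1.376 for vri (adjusted p = 0.017), -0.7684 for E23 (adjusted p = 0.036), -0.6297 for Kr-h1 (adjusted p = 0.026) and 0.4995 for phm (adjusted p = 0.03). The last 3 of these calls were lost in 8 to 11 of 30 alternatives.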

How the results depend on the processing

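Calls of EcR, Eip74EF, ftz-f1 and Hr39 between the genotypes, and of Eip78C on LSD, held in all 31 alternatives. The count of the 10 genes called on LSD was 5, against 8 with quantile normalization and 9 with CPM of all recovered reads. Over all genes 5391 were called, against 6008 and 6966 with these scalings. The count of the 10 genes was 8 when only its own 8 libraries were fitted, where 4936 of all genes were called. With 1 library left out it was 5 to 8 (8 without control HSD replicate 3). Of all genes, 4824 to 5548 were then called (5548 without control HSD replicate 3). On HSD the count of the 10 genes was 4, and 4 to 5 with 1 library left out. Of all genes, 3894 were called on HSD, and 3360 to 4063 with 1 library left out. Between the diets in larvae labelled grn RNAi, 1 of the 10 genes was called. This count was 4 with the 8 libraries alone, 0 at an adjusted p of 0.01 and 0 to 2 with 1 library left out. Of all genes, 4146 were called, against 4962, 2887 and 3495 to 4309 in these settings. In control larvae 1 of the 10 genes was called, against 0 with the 8 libraries alone, 0 at 0.01 and 0 to 2 with 1 library left out. Of all genes, 4138 were called there, against 2842, 2706 and 3489 to 4298. For the difference between diets 0 of the 10 genes were called, against 1 with DESeq2 and 1 with voom. The count was 1 without both HSD libraries nearest to LSD (an alternative chosen after seeing the data) and 0 to 2 with 1 library left out. Of all genes, 532 were called for the difference, against 1033 with DESeq2 and 560 with voom. Without both HSD libraries nearest to LSD there were 648, and with 1 library left out 331 to 1017. The cause of these changes was not tested.

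Signs turned only for values that had not passed. Between genotypes on LSD, quantile normalization gave 0.037 for br and 0.031 for Oatp74D, and CPM of all recovered reads gave 0.16 and 0.13. On HSD, quantile normalization gave 0.062 for br, 0.068 for Eip75B, 0.055 for tai and 0.046 for ImpL2, and CPM of all recovered reads gave 0.12 for br, 0.050 for Eip75B and 0.010 for usp. Without both HSD libraries nearest to LSD, br was 0.10 on HSD, and the diet values in larvae labelled grn RNAi were -0.020 for EcR and 0.0093 for ftz-f1. That of Eip75B was 0.024 with median-of-ratios scaling, 0.044 with quantile normalization, 0.028 with DESeq2 and 0.00019 with edgeR. The difference of br was -0.041 with CPM of all recovered reads. With 1 library left out, br ran between -0.13 and 0.11 on LSD and between -0.17 and 0.14 on HSD, and Hnf4 between -0.026 and 0.084 on LSD and between -0.0070 and 0.036 on HSD. The diet values in larvae labelled grn RNAi ran between -0.020 and 0.12 for EcR, -0.45 and 0.19 for Eip74EF, -0.039 and 0.034 for Eip75B and -0.49 and 0.081 for ftz-f1, and that of usp in control larvae between -0.0055 and 0.12. The difference between diets ran between -0.16 and 0.012 for EcR, -0.59 and 0.041 for Eip74EF and -0.13 and 0.18 for br.

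Libraries with the same replicate number were, as a set, no more alike than others. Their deviations had r between -0.51 and 0.80 (median -0.025, 10 of 24 over 0.1). For libraries with different numbers r lay between -0.68 and 0.66 (median -0.024, 31 of 72 over 0.1). With a replicate block the count of the 10 genes called was 5 on LSD, 4 on HSD, 1 for each diet comparison and 0 for the difference. Of all genes, 5323 were then called on LSD and 3824 on HSD. Between the diets there were 4015 in control larvae and 4075 in larvae labelled grn RNAi, and 432 for the difference. The difference of phm was lost with the block (adjusted p = 0.057). Depth was not limiting for the 10 genes, which had at least 105 reads in a library.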
